A study of Mus musculus with 6 samples.

Results

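The St3gal6 gene and 8 other genes of sialic acid transfer were followed in NCTC 1469 cells: the sialyltransferase genes St3gal1, St3gal2, St3gal3, St3gal4, St3gal5, St6gal1 and St8sia4, and Cmas, which supplies their substrate. They are 9 of the 53800 genes in the deposited count table and were found there by symbol, 1 row for each. St3gal6 was chosen by its lower count in simulated microgravity, in the comparison described here, and the other 8 were added with results of that comparison known. The differences of the 9 genes between the groups are therefore given as a description, with no test.

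Sialic acid is the charged sugar that ends many glycan chains of cell surface glycoproteins and gangliosides. Cmas couples it to CMP in the nucleus, a transporter carries CMP-sialic acid into the Golgi, and sialyltransferases there move it onto an acceptor sugar. St3gal and St6gal enzymes place it on galactose, each in its own linkage and on its own set of chains, and St8sia enzymes place it on another sialic acid. In liver, sialic acid on secreted glycoproteins delays their uptake by the asialoglycoprotein receptor of hepatocytes. On leukocytes, sialylated and fucosylated lactosamine chains are ligands of selectins.

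NCTC 1469 is a line derived from mouse liver, labelled as wild-type hepatocytes. Cells in DMEM with 10% fetal bovine serum were kept for 6 days at normal gravity (3 libraries) or turned on a random positioning machine. That device rotates cultures so that no direction of gravity persists, and its 3 libraries are labelled simulated microgravity. No library carries a melatonin label, although the series' title names that treatment. The labels do not say that replicates came from separate cultures, so p-values measure only the spread between these libraries, part of which could be technical. In the count table, C was read as control and R as random positioning, a reading that all directions below depend on.

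Libraries held 30474792 to 34318208 counts. Hepatocyte markers went against the label: 6 of 10, among them the albumin gene Alb and the liver transcription factor gene Hnf4a, had 0 counts in all 6 libraries, and the markers summed to 117.4 to 158.9 CPM (counts scaled to a common library total) under normal gravity and to 82.4 to 93.9 CPM under simulated microgravity, nearly all from Afp and Trf. All 10 macrophage markers were tested and none passed the test of the comparison. Their sum was 6807 to 10617 CPM under normal gravity and 10978 to 12359 CPM under simulated microgravity. Lyz2 stood at 3928, 969 and 1022 CPM against 3516 to 4558 CPM, and Marco at 222, 56.1 and 52.9 CPM against 629 to 705 CPM. In both, normal gravity replicate 1 was the highest of its group. Adgre1, Cd14 and Spi1 had lower means in simulated microgravity, and the rest had higher ones. Endothelial markers summed to 19.4 to 20.0 CPM against 45.5 to 58.3 CPM, with Vwf past the test. Vwf made up most of that sum in every library. Of the other tested endothelial markers, Kdr had a higher mean in simulated microgravity, and Pecam1 and Cdh5 had lower ones. Fibroblast markers summed to 41.9 to 62.7 CPM against 69.0 to 73.0 CPM, mostly from Pdgfra, which did not pass. Pdgfrb passed at means of 2.29 against 5.72 CPM, and Col1a1 had a lower mean in simulated microgravity. The part of these markers in the results was not tested. Normal gravity replicate 1 stood apart. Its correlation with simulated microgravity libraries reached 0.946, and with its own group at most 0.936. Against the other libraries of its group, genes of up to 1000 bases were higher there (median deviation 0.63 log2 units) and genes over 5000 bases lower (-0.70). Values without that library are therefore given beside many of the results.

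St3gal6, which sialylates type 2 lactosamine chains and with St3gal4 makes selectin ligands in mice, was the member with the largest difference. Its level at normal gravity was 13.6, 14.8 and 17.7 CPM in replicates 1, 2 and 3, from 432, 499 and 571 counts. In simulated microgravity it was 4.06, 3.87 and 2.90 CPM, from 138, 117 and 94 counts. All normal gravity libraries were far above all simulated microgravity libraries. The means were 15.4 ± 2.11 CPM and 3.61 ± 0.63 CPM (SD, n = 3 each), a log2 fold change of -2.09 (SE 0.20), or 4.25-fold lower. Without normal gravity replicate 1 the log2 fold change was -2.17 (SE 0.17). Among all 14509 tested genes, 43 (0.296%) had a log2 fold change at or below that of St3gal6. In bulk RNA, fewer cells that express a gene and less RNA per cell cannot be told apart.

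**Figure D1:**
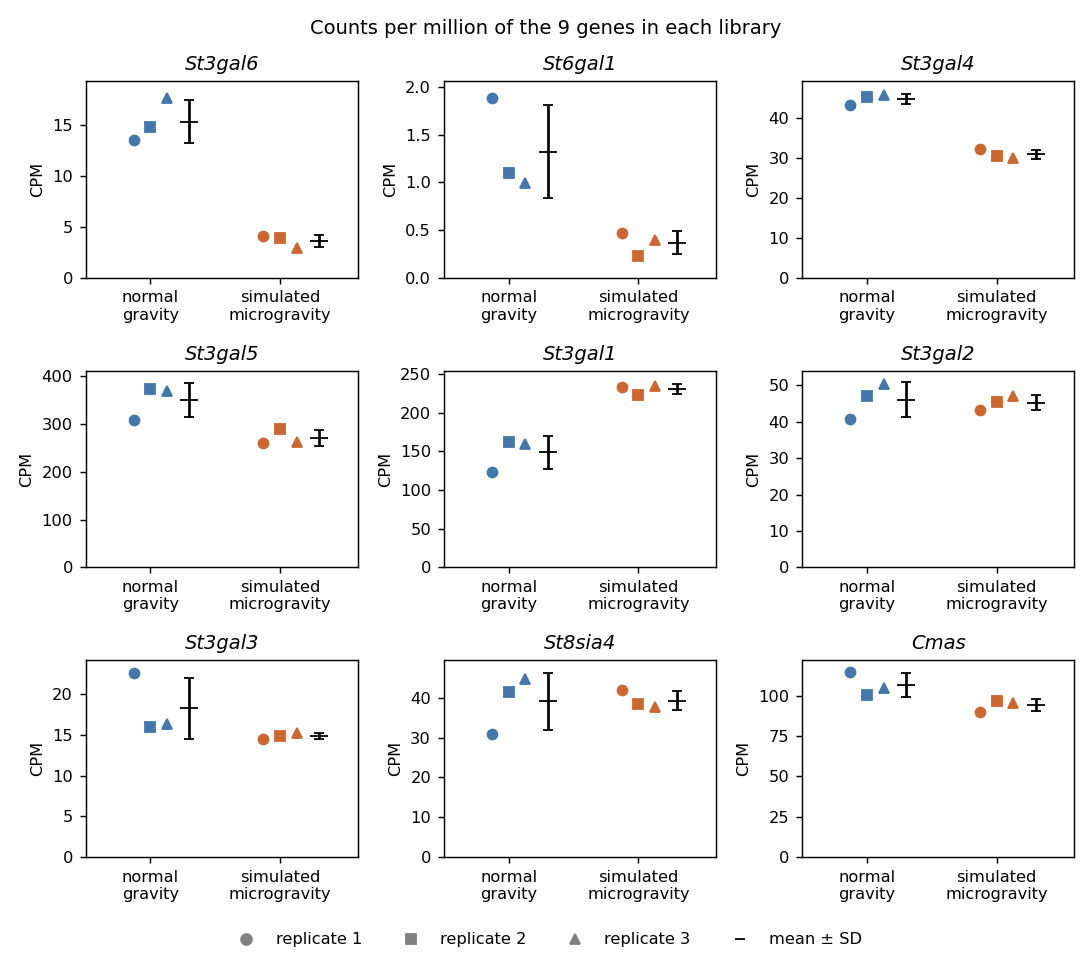
CPM (y axis, from 0) of the 9 genes in each library, with normal gravity in blue, simulated microgravity in orange, symbols for replicates, and black marks for the mean ± SD of 3 libraries. St3gal6 stands at 13.6 to 17.7 CPM against 2.90 to 4.06 CPM, St3gal1 is the only gene whose simulated microgravity libraries all lie above the normal gravity libraries, and replicate 1 is often the end of its group.

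In the mouse assembly GRCm38, St3gal6 lies on chromosome 16 from 58468125 to 58524243 on the minus strand. Its 3′ end overlaps the 3′ end of Dcbld2, a gene of the plus strand (58408443 to 58469727) that encodes a membrane protein of the neuropilin-like type. The overlap runs over 1603 bases, all of them exonic in both genes in GENCODE M21 and none of them coding in either. It makes up 26.0% of the exonic bases of St3gal6 and 19.1% of those of Dcbld2. The use of strand in the counting is not given in the sources used here, so reads in that stretch could have gone to either gene or to none.

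The Dcbld2 row differed far less than that of St3gal6. Dcbld2 had 545, 1472 and 1304 counts at normal gravity and 782, 1189 and 900 in simulated microgravity, or 17.1, 43.7 and 40.4 CPM against 23.0, 39.3 and 27.7 CPM. The groups overlapped, with normal gravity replicate 1 the lowest of the 6 libraries, and the log2 fold change was -0.17, with an SE of 0.38 (adjusted p = 0.883 in edgeR's quasi-likelihood test). Without that library the groups did not overlap, and the log2 fold change was -0.48 (adjusted p = 0.143), in the direction of St3gal6. St3gal6 made up 44.2%, 25.3% and 30.5% of the summed counts of both genes at normal gravity and 15.0%, 8.96% and 9.46% in simulated microgravity, so its share was lower in each of the latter libraries than in any of the former. With both rows summed into 1, which is mostly Dcbld2 in every library, the log2 fold change was -0.55 (SE 0.30). How many reads of the shared stretch went to which row was not tested.

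**Figure D2:**
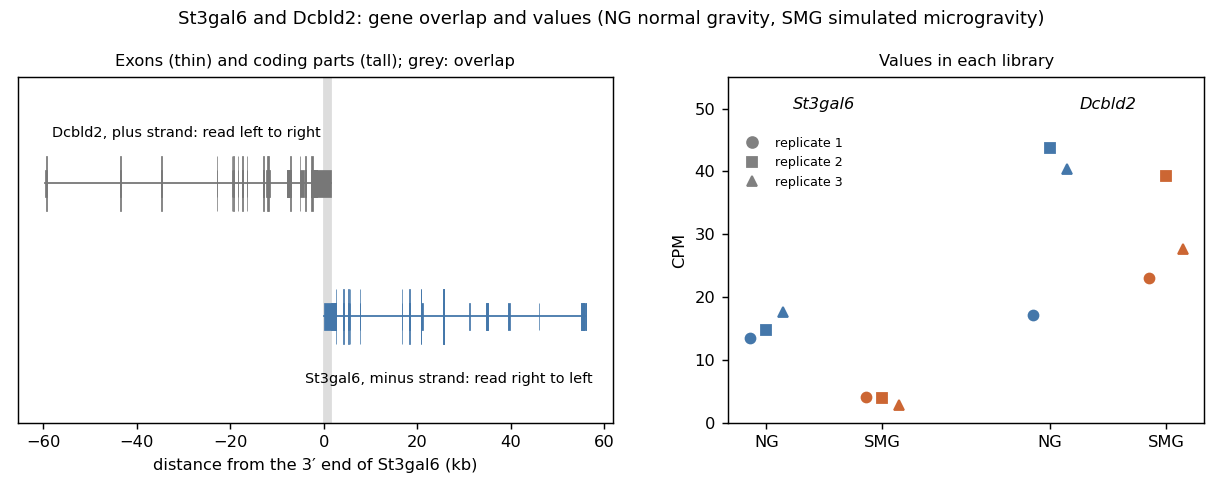
Left: exons (thin boxes) and coding parts (tall boxes) of Dcbld2 and St3gal6 along the genome, x axis in kb from the 3′ end of St3gal6, with the shared 1603 bases in grey. Right: CPM of both genes in each library, where St3gal6 separates the groups. Dcbld2, at 17.1 to 43.7 CPM, does not with all libraries, and normal gravity replicate 1 is its lowest point.

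RefSeq gives St3gal6 start sites 827 bases apart, and the counts per gene do not tell which was used. Both windows are shown because they differ in base composition, with that of St3gal5, the most abundant member, beside them. Each runs from 250 bases before to 50 bases after a start site of GRCm38.p6, 5′ to 3′, and capitals mark matches on either strand to the CCAAT box (CCAAT or ATTGG), the GC box (GGGCGG or CCGCCC) and the TATA box (TATAAA or TTTATA), with overlapping matches counted each. The windows are chr16:58524204-58524503 (minus strand), chr16:58523377-58523676 (minus strand) and chr6:72097358-72097657 (plus strand).
St3gal6, outer start: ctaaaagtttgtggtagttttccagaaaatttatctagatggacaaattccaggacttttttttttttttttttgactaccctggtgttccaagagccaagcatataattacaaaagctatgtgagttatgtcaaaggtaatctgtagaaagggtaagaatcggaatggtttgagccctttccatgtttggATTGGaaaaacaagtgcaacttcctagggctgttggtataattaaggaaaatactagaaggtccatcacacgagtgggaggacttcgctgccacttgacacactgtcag
St3gal6, inner start: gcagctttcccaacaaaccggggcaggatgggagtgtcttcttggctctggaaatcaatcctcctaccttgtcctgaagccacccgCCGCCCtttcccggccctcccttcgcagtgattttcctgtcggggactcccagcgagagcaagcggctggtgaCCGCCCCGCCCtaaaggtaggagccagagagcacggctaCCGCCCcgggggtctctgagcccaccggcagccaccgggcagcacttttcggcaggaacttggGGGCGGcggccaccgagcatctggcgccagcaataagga
St3gal5: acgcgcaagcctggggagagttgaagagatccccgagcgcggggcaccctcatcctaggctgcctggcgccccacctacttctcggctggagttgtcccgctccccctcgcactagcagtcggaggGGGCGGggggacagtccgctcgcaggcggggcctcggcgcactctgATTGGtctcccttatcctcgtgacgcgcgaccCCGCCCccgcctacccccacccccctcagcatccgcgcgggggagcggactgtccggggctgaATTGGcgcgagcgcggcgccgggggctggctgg
The outer St3gal6 window held 38.7% G and C, 3 CG pairs, 1 CCAAT box and no GC box. The inner window held 64.7% G and C, 20 CG pairs and 5 GC boxes, and the St3gal5 window 72.7%, 33 CG pairs, 2 CCAAT boxes and 2 GC boxes. Of 32851 RefSeq promoter windows of the same length, 37.4% held a CCAAT box, 35.7% a GC box and 13.6% a TATA box, which none of these windows holds, and their median was 7 CG pairs. Of the 9 genes, 7 had a window in the table used, 10 windows in all.

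St3gal4, the other St3gal enzyme best known for type 2 chains, stood at 43.3, 45.4 and 45.7 CPM at normal gravity. In simulated microgravity it stood at 32.2, 30.6 and 30.03 CPM. The groups did not overlap and the replicates lay close together, at means of 44.8 ± 1.31 and 30.9 ± 1.13 CPM (SD, n = 3 each). The log2 fold change was -0.53 (SE 0.10), and -0.56 (SE 0.06) without normal gravity replicate 1. St3gal4 shares 412 exonic bases (14.1% of its own) with 4930581F22Rik on the other strand, which had 124 to 221 counts in a library, where St3gal4 had 925 to 1528.

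St3gal3, which acts on galactose of lactosamine chains of N-glycans, was at 22.6, 16.0 and 16.3 CPM at normal gravity and at 14.5, 14.9 and 15.3 CPM in simulated microgravity. The groups did not overlap, but they lay close together apart from normal gravity replicate 1, the highest of the 6 libraries. The log2 fold change was -0.30 (SE 0.17) with that library and -0.11 (SE 0.08) without it.

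St3gal1, which sialylates core 1 chains of O-linked glycans, differed in the other direction. It stood at 124.0, 162.2 and 159.9 CPM at normal gravity and at 233.4, 222.9 and 234.8 CPM in simulated microgravity. All simulated microgravity libraries were above all normal gravity libraries, the lowest of which was replicate 1. The means were 148.7 ± 21.4 and 230.4 ± 6.51 CPM (SD, n = 3 each), a log2 fold change of 0.63 (SE 0.13), and 0.52 (SE 0.04) without replicate 1. St3gal2, which also takes core 1 chains and extends gangliosides, stood at 40.8, 47.0 and 50.4 CPM against 43.2, 45.4 and 47.2 CPM. Its groups overlapped, and its log2 fold change was -0.03 (SE 0.12), and -0.10 (SE 0.07) without replicate 1.

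St3gal5, which makes the simplest ganglioside of the common series by sialylating lactosylceramide, was at 308.6, 372.5 and 368.4 CPM at normal gravity. In simulated microgravity it was at 259.7, 289.1 and 262.8 CPM. The groups did not overlap, although normal gravity replicate 1 lay nearer to the highest simulated microgravity library than to the rest of its own group. The log2 fold change was -0.37 (SE 0.12), and -0.45 (SE 0.06) without that replicate.

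St6gal1, the enzyme that ends N-glycans of serum glycoproteins in liver, was scarcely detected. It had 60, 37 and 32 counts at normal gravity and 16, 7 and 13 in simulated microgravity, or 1.88, 1.10 and 0.99 CPM against 0.47, 0.23 and 0.40 CPM. The groups did not overlap, and normal gravity replicate 1 was the highest library. The log2 fold change of -1.83 carried an SE of 0.43, the widest of the 9 genes, and was -1.49 (SE 0.40) without replicate 1. St6gal1 lies on chromosome 16 as well, 35.1 Mb from St3gal6.

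St8sia4, a polysialyltransferase, stood at 31.0, 41.5 and 44.8 CPM at normal gravity and at 42.0, 38.4 and 37.7 CPM in simulated microgravity. The groups overlapped, with normal gravity replicate 1 the lowest library. The log2 fold change was 0.01 (SE 0.16), and -0.13 (SE 0.08) without that library. Cmas stood at 115.0, 100.4 and 105.1 CPM against 90.2, 96.7 and 95.9 CPM, without overlap. Its log2 fold change of -0.18 (SE 0.11) was among the smaller ones of the 9 genes, and was -0.12 (SE 0.06) without normal gravity replicate 1.

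Of the 9 genes, all of which passed the filter on low counts, 7 did not overlap between the groups, 6 lower and 1 higher in simulated microgravity. Among all tested genes 27.3% did not overlap, 12.9% lower and 14.4% higher. St3gal6 was the 1 member past an adjusted p of 0.05 in edgeR's quasi-likelihood test, where 1.52% of all tested genes were past it, 0.365% lower and 1.16% higher. Nothing is read from these counts, since the comparison chose the members. The 9 genes had a median log2 fold change of -0.30, and all tested genes had one of -0.02. Without normal gravity replicate 1, St3gal4, St3gal5, St3gal6 and St6gal1 were past that threshold downward and St3gal1 upward, where 30.8% of all tested genes were past it, 15.1% lower and 15.7% higher. Without any other of the 6 libraries no member was past it.

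**Figure D3:**
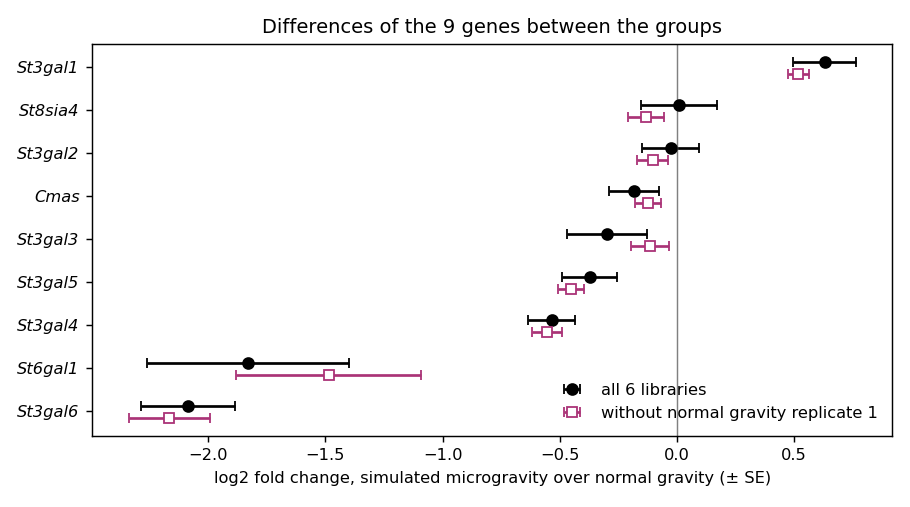
Log2 fold changes (x axis, simulated microgravity over normal gravity) of the 9 genes with their SE, from all 6 libraries (black) and without normal gravity replicate 1 (open purple). St3gal6 at -2.09 and -2.17 and St6gal1 at -1.83 and -1.49 stand away from the other 7 genes, which lie between -0.56 and 0.63.

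Levels between genes were compared per length, as CPM per kilobase of the gene length in the table. St3gal5 was the most abundant member in every library, at a mean of 127.2 over the 6 libraries. Its means were 143.4 ± 14.7 at normal gravity and 110.9 ± 6.62 in simulated microgravity (SD, n = 3 each). St3gal1 (33.1) and Cmas (31.1) followed, in an order that differed between the groups. St3gal1 stood at 25.9 ± 3.74 and 40.2 ± 1.14, and Cmas at 33.0 ± 2.30 and 29.1 ± 1.08. St3gal1 was above Cmas in 3 of 6 libraries, those in simulated microgravity. St3gal4 (18.1), St3gal2 (10.4) and St3gal3 (6.51) came next, each above the following gene in every library and in ranges that did not overlap. St8sia4 (3.91) and St3gal6 (2.30) overlapped in range, with St8sia4 the higher in 5 of 6 libraries. St6gal1 was last at 0.19. The median of all tested genes was 7.74 on the same scale, so the means of St3gal3, St8sia4, St3gal6 and St6gal1 lay below it and those of the others above it.

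Summed per length over the 6 St3gal genes, the level was 190.3, 223.2 and 222.9 at normal gravity and 179.0, 189.1 and 180.5 in simulated microgravity. The groups did not overlap, but normal gravity replicate 1 lay just above simulated microgravity replicate 2. St3gal5 took 66.5% to 68.4% of that sum under normal gravity and 59.5% to 62.7% under simulated microgravity, while St3gal1 took 11.4% to 12.7% and 20.6% to 22.7%. The share of St3gal6 was 1.61% to 1.92% and 0.389% to 0.550%, so the gene with the largest fold difference was the smallest part of the family's RNA in every library.

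**Figure D4:**
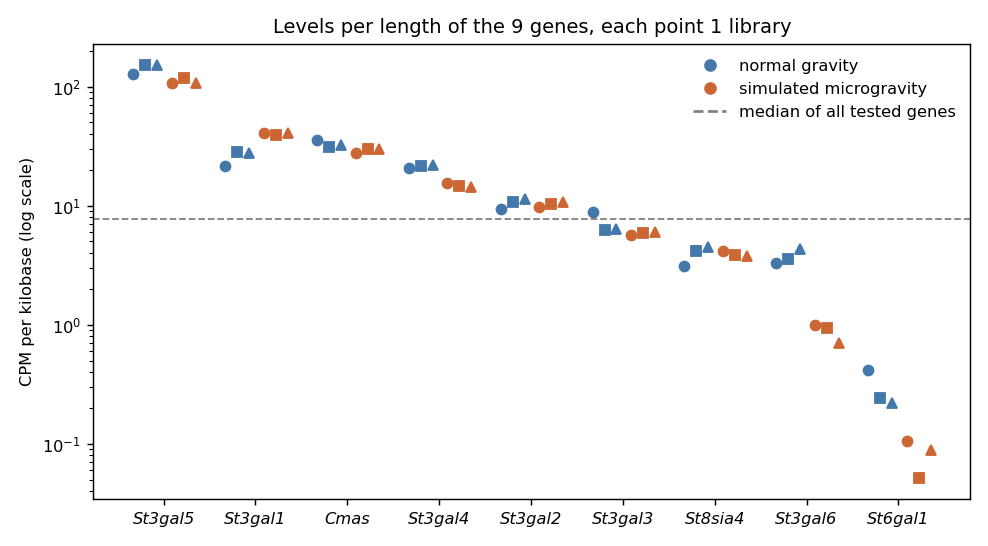
Level per length (y axis, log scale, CPM per kilobase) of the 9 genes in each library, normal gravity in blue and simulated microgravity in orange, ordered by their mean, with the median of all tested genes (7.74) dashed. St3gal5 lies above 100 in every library and St6gal1 below 0.5.

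Of the 9 genes, 8 carry the glycosyltransferase family 29 domain and a Golgi membrane term in the deposited table, and Cmas carries neither. St3gal6 was the only member with a term for the response to interleukin 6. By the root mean square difference between log2 CPM profiles centred on their own mean, over the 6 libraries and 9591 eligible genes, the genes most like St3gal6 were Cd5 (0.17), which encodes an inhibitory lymphocyte receptor, St5 (0.26), Olfm1 (0.27), Lix1 (0.27) and Macrod2 (0.27). Their Pearson r with St3gal6 was 0.967 to 0.987, and 184 of the eligible genes had an r above 0.95 over these 6 libraries. A high r follows from their choice as the nearest profiles. In each of them all normal gravity libraries were above all simulated microgravity libraries (log2 fold changes of -2.28 to -1.88). The r does not separate likeness within the groups from that difference.

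The rest of the sialic acid pathway was followed in 11 lists of 96 genes, of which 66 passed the filter on low counts. Of these, 2 rose, among them Cd44, none fell and 64 did not pass in edgeR, where 1.16% of all tested genes rose. With an unadjusted p under 0.05 there were 12 higher and 3 lower, against 1240 and 1085 of all 14509 tested genes. DESeq2, under its own filter, called 8 higher and 2 lower, against 593 and 369 of 16345 genes. In limma-voom 24 were called higher and 7 lower, against 2525 and 2273 of 14509 genes. That fit gave normal gravity replicate 1 a weight of 0.051 and the other libraries weights of 1.38 to 2.25. Its calls, here and per list, are therefore not separate from those without that replicate. The counts per list below have the same background. Without normal gravity replicate 1, 23 rose and 8 fell, 47.0% of the 66, against 30.8% of all genes tested there, and none passed without any 1 of the other 5 libraries. Groups of 17 of the 66 (25.8%) did not overlap, against 27.3% of all tested genes. The median log2 fold change was 0.12, against -0.02 over all tested genes.

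The donor side lies upstream of the enzymes. Of 8 genes of sialic acid synthesis and transport, 7 were tested and none passed in edgeR (1 higher at an unadjusted p under 0.05, 1 higher in DESeq2, 3 higher and 1 lower in limma-voom), with a median of 0.04, or 0.28 without normal gravity replicate 1. Slc17a5, which exports sialic acid from lysosomes, stood at 54.8, 52.1 and 54.4 CPM against 78.8, 75.6 and 77.8 CPM. Its groups were far apart for their spread. The log2 fold change was 0.53 with an SE of 0.10 (adjusted p = 0.0649), and it passed without normal gravity replicate 1 (0.54, adjusted p = 0.00149). Slc35a1, the CMP-sialic acid transporter, differed by 0.25 (SE 0.20, adjusted p = 0.628) and Renbp, which can divert a precursor, by 0.20 (SE 0.19, adjusted p = 0.668). Both were highest in normal gravity replicate 1 and passed without it, at 0.48 (adjusted p = 0.0214) and 0.40 (adjusted p = 0.0402).

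Gne, which starts sialic acid synthesis, stood at 17.7 ± 1.24 and 18.2 ± 1.37 CPM (SD, n = 3 each). Its log2 fold change was 0.04 with an SE of 0.13 (adjusted p = 0.925 in edgeR), and below 0 in 5 of 13 alternatives. Nans, the sialic acid synthase gene, differed by -0.36 (SE 0.17, adjusted p = 0.356) with normal gravity replicate 1 the highest library, and by -0.18 without it. Nagk, a kinase of N-acetylglucosamine salvage, turned from -0.31 (adjusted p = 0.773) to 0.28 without that library. Nanp, the phosphatase of the pathway, was listed at 8.45 and 6.35 CPM in simulated microgravity replicates 1 and 2 and at 0 in replicate 3 (difference -0.37, SE 1.20, adjusted p = 0.924).

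Beyond the members, 12 further sialyltransferase genes were looked for. In all 6 libraries 8 of them had 0 counts: St6gal2, St6galnac1, St6galnac3, St6galnac5, St8sia2, St8sia3, St8sia5 and St8sia6. By counting error alone, that allows at most 0.0154 CPM over 194666094 counts. St6galnac2 had at most 5 counts in a library. The other 3 were tested, and none passed in edgeR, at an unadjusted p under 0.05 or in DESeq2, while limma-voom called 1 lower. St6galnac6, which acts on gangliosides, stood at 76.1 ± 6.94 and 74.5 ± 2.97 CPM (difference -0.03, SE 0.12, adjusted p = 0.937). Without normal gravity replicate 1, its highest library, the difference was 0.05 (SE 0.06). St6galnac4, which acts on sialylated core 1 chains, stood at 108.6, 133.5 and 121.1 CPM against 129.9, 129.6 and 62.8 CPM, so 1 simulated microgravity library lay far below the others (difference -0.17, SE 0.29, adjusted p = 0.835). Without that library the log2 fold change was 0.10. St8sia1, which adds the next sialic acid to the product of St3gal5, differed by -0.43 (SE 0.35, adjusted p = 0.619) and fell by 0.72 without normal gravity replicate 1 (adjusted p = 0.0257).

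On the removing side, 5 of 8 genes were tested. None passed in edgeR or DESeq2, or at an unadjusted p under 0.05, and limma-voom called 2 higher (median 0.28). Neu1, the lysosomal sialidase gene, stood at 198.8, 135.5 and 135.2 CPM against 194.0, 187.0 and 215.9 CPM. Normal gravity replicate 1 lay among the simulated microgravity libraries, and the difference on the log2 scale was 0.35 (SE 0.18, adjusted p = 0.428). Ctsa, whose product protects Neu1 in the lysosome, was highest of all in that replicate (0.19, SE 0.18, adjusted p = 0.674). Both passed without that replicate, Neu1 at 0.56 (adjusted p = 0.00272) and Ctsa at 0.41 (adjusted p = 0.00112). Neu3, a membrane sialidase gene acting on gangliosides, differed by 0.25 (SE 0.16, adjusted p = 0.530), Siae, which removes acetyl groups from sialic acid, by 0.34 (SE 0.20, adjusted p = 0.496) and Casd1, which adds them, by 0.28 (SE 0.19, adjusted p = 0.555), and these 3 did not pass in any alternative. Without normal gravity replicate 1, where Siae and Casd1 were lowest, Siae differed by 0.16 and Casd1 by 0.10.

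Both genes that passed were in the list of sialyl Lewis x and selectin ligands, which is described here by Cd44. Cd44, a hyaluronan receptor that can carry selectin ligands, rose from 240.3, 299.5 and 295.0 CPM to 553.2, 527.7 and 508.7 CPM. The groups were far apart, and the log2 fold change was 0.93 with an SE of 0.12 (adjusted p = 0.0254). Over the alternatives the adjusted p ran from 2.27e-06 to 0.228 for Cd44. The list had a median of 0.93 over 5 tested genes, all above 0, and that median is the value of Cd44 itself. Fut7, the fucosyltransferase that completes sialyl Lewis x on chains capped by St3gal enzymes, was named after its values were seen, outside the naming rule. It stood at 25.7, 16.4 and 13.4 CPM against 28.9, 26.6 and 31.0 CPM (difference 0.64, SE 0.25, adjusted p = 0.280). It passed without normal gravity replicate 1 (0.96, adjusted p = 0.00296).

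**Figure D5:**
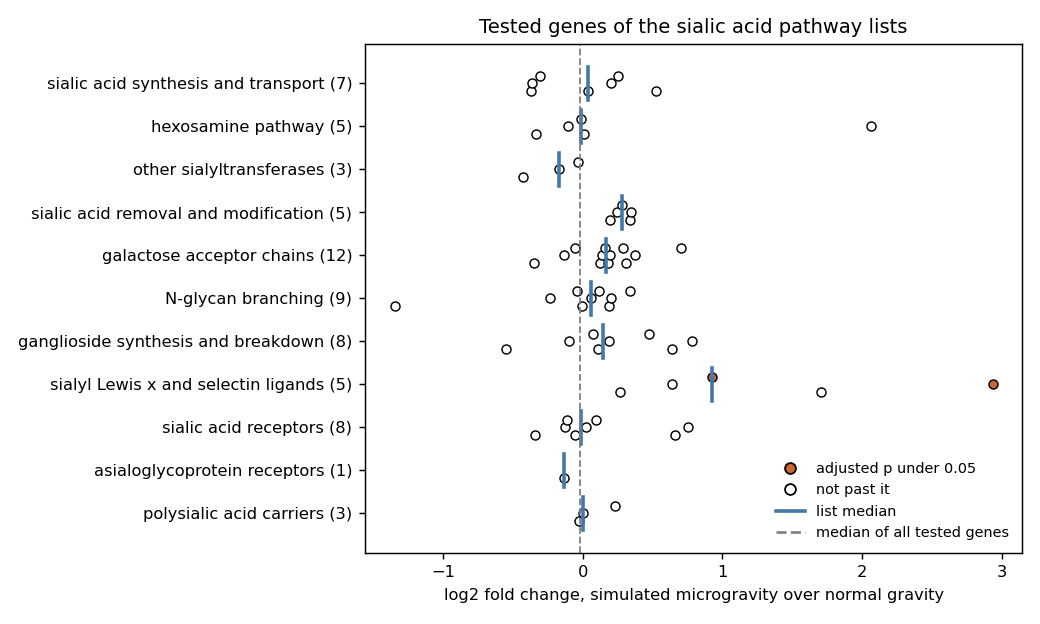
Log2 fold changes (x axis, simulated microgravity over normal gravity) of the 66 tested genes in 11 lists (number tested in parentheses), with list medians in blue, the median of all tested genes dashed and genes past an adjusted p of 0.05 filled. Cd44 is the filled point at 0.93, on the median of its list.

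No gene of the other 7 lists passed in edgeR. Of 12 tested genes that build galactose-ended acceptor chains, 2 were higher at an unadjusted p under 0.05, 1 in DESeq2 and 5 in limma-voom (median 0.17). B4galt5, which makes the lactosylceramide that St3gal5 uses, differed most, at 0.71 (SE 0.12, adjusted p = 0.0567), and passed without normal gravity replicate 1 (0.61, adjusted p = 0.000782). Of 8 tested ganglioside genes, an unadjusted p under 0.05 was reached by 3 that were higher and 1 that was lower (2 and 2 called in DESeq2, 6 and 1 in limma-voom, median 0.15), with Psap, the saposin precursor gene, at 0.48 (SE 0.19, adjusted p = 0.286). Without that library Psap passed (0.71, adjusted p = 0.000545), 5 genes of the list were called higher and 1 lower, and the median was 0.50. Of 8 tested sialic acid receptor genes, 2 were higher at an unadjusted p under 0.05, 1 in DESeq2 and 2 in limma-voom (median -0.02), and the most abundant by CPM, Cd33, differed by 0.66 (SE 0.25, adjusted p = 0.270). Without the same library Cd33 passed (0.92, adjusted p = 0.0156), 2 of the 8 were called higher, and the median was 0.22 with all 8 above 0.

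The remaining 4 lists concern chain branching, sugar supply and binding partners. Of 9 tested N-glycan branching genes, 1 was lower at an unadjusted p under 0.05, none was called in DESeq2, and 1 was higher and 3 lower in limma-voom (median 0.06). Man2a1, a Golgi mannosidase gene, differed by -0.004 (SE 0.32, adjusted p = 0.997), and by -0.31 without normal gravity replicate 1 (adjusted p = 0.00459), where the list's median was -0.11. Of 5 hexosamine pathway genes, an unadjusted p under 0.05 was reached by 1 in each direction (1 higher called in DESeq2, 1 in each direction in limma-voom, median -0.01), with Gfpt1, which commits glucose carbon to that pathway, at 0.01 (SE 0.25, adjusted p = 0.995), or -0.24 without that library (adjusted p = 0.0199, median -0.12). Of 3 tested polysialic acid carriers, none was called at an unadjusted p under 0.05 or in DESeq2 or limma-voom (median 0.002), and Nrp2 differed by 0.23 (SE 0.25, adjusted p = 0.721), or -0.01 without that library. Of 5 asialoglycoprotein receptor genes only Clec10a, a macrophage lectin gene, was tested (-0.14, SE 0.45, adjusted p = 0.925), not called at an unadjusted p under 0.05 or in DESeq2 and higher in limma-voom and without that library (0.58, adjusted p = 0.0274). Asgr1, the hepatocyte receptor gene, had 0 counts in all 6 libraries and was, like Fut7, named after its values were seen.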

How the data were processed

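RNA sequencing of 3 normal gravity and 3 random positioning machine libraries was deposited as 1 table of whole-number read counts per gene. Read cleaning with fastp 2.0 and alignment software HISAT2 2.1.0 are named in the submitters' processing notes; counter, strand setting, build and gene models are not given in the sources used here. Gene coordinates equalled GENCODE M21 (GRCm38) for 97.1% of shared genes, and the deposited gene length, in bases, equalled that of the longest transcript for 97.2%. Of 53801 lines, 1 held no gene.

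The counts were tested with edgeR 4.0.16 (R 4.3.3): filterByExpr, which kept 14509 genes, TMM, two-sided quasi-likelihood F test, Benjamini-Hochberg adjustment over all tested genes, threshold 0.05. SE is the log2 fold change over the root of F. CPM is TMM-scaled, but scaled to all counts for cell type markers. A count of 0 is given with the level that 3 counts allow, which covers counting error only. DESeq2 1.42.0, limma 3.58.1 (voom with sample quality weights) and other settings were alternatives. The procedure was also run on counts simulated with a spread taken from these libraries, and no result here rests on that run. Members, gene lists and tests were chosen with earlier results of these data known. Genes named were all members, Dcbld2, every tested gene of 3 lists (synthesis and transport, other sialyltransferases, removal), up to 3 passing genes or else the most abundant of each other list, and the 5 profiles nearest to St3gal6, among genes with a mean of at least 5 CPM (pseudocount 0.1 CPM), leaving out names of predicted genes, clones and pseudogenes; exceptions are marked where they are named. Of the pathway genes that passed, 1 is not reported here.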

Additional observations from a re-analysis of the deposited data

How the results depend on the processing

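St3gal6 had a log2 fold change of -2.18 to -1.95 when each library was left out in turn and of -2.14 to -2.09 in 7 other fits, and -0.55 with Dcbld2 summed in. The call counts depend on the tool and the libraries. The genes called, 221 with all libraries, numbered 962 in DESeq2, 4798 in limma-voom, 125 with no filter on low counts, 696 with a gene length trend removed from each library and 3 to 4559 with 1 library left out; the highest count was without normal gravity replicate 1 (51.1% of the calls higher, against 76.0% in the main comparison and 63.1% with the trend removed). Members called numbered 4, 5 and 2 of 9 in DESeq2, limma-voom and the trend fit. In these fits 962 of 16345, 4798 of 14509 and 696 of 14509 tested genes were called. Since limma-voom gave normal gravity replicate 1 a weight of 0.051, its counts are not separate from those without that library. With 1 library left out, 0 to 5 members were called. Nothing is read from these member counts, since the comparison chose the members. Pathway genes called numbered 10, 31 and 9 in the same fits, 1 with no filter (Cd44) and 0 to 31 with 1 library left out. With the replicate number as a block, edgeR called 0 genes, 0 members and 0 pathway genes, while 1534 genes and 13 pathway genes had an unadjusted p under 0.05. No label says whether the numbers pair the samples. Deviations of same-numbered libraries correlated at -0.073, 0.025 and -0.090, and those of differently numbered libraries at -0.059 to 0.093. With 3 libraries in a group and normal gravity replicate 1 apart from the rest, these values cannot decide whether the samples were paired. Without division by length, 5 of 9 members kept their place in the order of levels.

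Signs were followed over all alternatives for the pathway genes chosen by the naming rule, not for the other tested genes of the lists. Among them 26 signs turned, of genes whose adjusted p in the main comparison ran from 0.721 to 0.997. Gfpt1 was -0.0053 in DESeq2, -0.22 in limma-voom, -0.0035 with DESeq2 size factors, -0.041 by library size alone, -0.059 with the trend removed and -0.24 to 0.16 with 1 library left out. Gne was -0.026 in limma-voom, -0.0026 by library size alone, -0.069 with the trend removed and -0.017 to 0.093 with 1 left out. In limma-voom Nagk was 0.31, St6galnac6 0.035 and Clec10a 0.58, and under the block Clec10a was 0.079 and Man2a1 0.096. With 1 library left out, Nagk ran from -0.60 to 0.28, St6galnac6 from -0.079 to 0.049, Clec10a from -0.45 to 0.58, Man2a1 from -0.31 to 0.19, Nrp2 from -0.011 to 0.37, Nanp from -1.01 to 0.21 and St6galnac4 from -0.33 to 0.10. The causes were not tested. Among these genes, 25 values that kept their sign passed in an alternative where they did not in the main comparison. With a turned sign, Clec10a passed in limma-voom and without normal gravity replicate 1, and Gfpt1 passed without that library. A further 13 values no longer passed, all of the genes that passed in the main comparison. Among the members, St3gal2 ran from -0.10 to 0.041 and St8sia4 from -0.13 to 0.11 with 1 library left out, so neither has a stable sign, and the other 7 kept their direction in all 13 alternatives.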
